A study of Mus musculus with 18 samples.

Results

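The peroxins are the proteins that build peroxisomes, and 9 of their genes were followed here in mouse liver: Pex3, Pex5, Pex7, Pex11a, Pex11g, Pex13, Pex14, Pex16 and Pex19. Members were the probes that the series' annotation assigns to exactly 1 of these symbols. Each of the 9 genes had 1 such probe, so 9 genes stand here against 22180 genes with a probe of a single symbol on the array. RNA came from the livers of male C57BL6 mice that were 6 weeks old at the start and 18 weeks old at the end of 12 weeks on their diet. On the high-fat diet (45% of energy from fat) there were groups with PFOS in the feed (H-PFOS), with PFNA in the feed (H-PFNA) and with no compound (HFD). The low-fat diet (10% of energy from fat) had the same 3 kinds of group (L-PFOS, L-PFNA and LFD). Each group had 3 arrays from 3 biological replicates, 18 in all. Perfluorooctane sulfonic acid (PFOS) and perfluorononanoic acid (PFNA) carry fluorinated chains of equal length, with a sulfonic acid head on PFOS where PFNA has a carboxylic acid head. The sources used here give no dose, so whether the exposures were matched is unknown. The title of the series concerns the effect of diet on the fatty liver disease that these compounds induce.

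Peroxisomes are single-membrane organelles that shorten very long fatty acids, make ether lipids and bile acids and break down hydrogen peroxide. New membrane proteins are carried by PEX19 and received at the membrane by PEX3, with PEX16 as the helper of PEX3. Matrix enzymes are carried in by the receptors PEX5 and PEX7, which dock at PEX13 and PEX14. PEX11 proteins elongate and divide the organelle. In rodent liver, agonists of the fatty acid receptor PPARA multiply peroxisomes, and Pex11a is a known PPARA target there.

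All values are the deposited array signal, read as log2 from its range and skew because no label states the base, and every fold below rests on that reading. The signal of the 9 probes was well within the upper part of the array: the mean over the 18 arrays lay between the 83.8th percentile of all 34472 probes, for Pex13, and the 97.7th, for Pex11a. The median signal per array was 4.43 to 4.59, and 2 arrays correlated at 0.9749 to 0.9913. The defining hepatocyte markers Alb, Apoa1, Ttr, Serpina1a, Cps1 and Fah were all far above the median of all probes. The first principal component of all probes held 17.9% of the variance and set 5 arrays apart from the other 13. These were H-PFOS replicates 1, 2 and 3, with scores of 27.8, 34.9 and 38.6, L-PFOS replicate 3 with 32.9 and H-PFNA replicate 3 with 32.4. The other 13 scores lay between −22.9 and −8.1, so L-PFOS replicate 3 and H-PFNA replicate 3 stood apart from their own groups. Differences of the 9 peroxins in L-PFOS and H-PFNA that are given singly below are also given without these 2 divergent arrays. In liver tissue, fewer cells of a type and less RNA per cell cannot be told apart.

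The promoter DNA of 4 of the genes is shown, since Pex11a, Pex3 and Pex16 had the largest differences under PFOS on the high-fat diet and Pex11g, a PEX11 gene too, had almost none. Each line gives the 250 bases before the annotated start, read 5′ to 3′ on the strand of the gene, from RefSeq on GRCm38.p6. Capitals mark the receptor site AGGTCA and the GC box GGGCGG, on either strand. The windows are chr7:79743132-79743381 (minus strand) for Pex11a, chr10:13553143-13553392 (minus strand) for Pex3, chr2:92374426-92374675 (plus strand) for Pex16 and chr8:3467649-3467898 (minus strand) for Pex11g.
Pex11a: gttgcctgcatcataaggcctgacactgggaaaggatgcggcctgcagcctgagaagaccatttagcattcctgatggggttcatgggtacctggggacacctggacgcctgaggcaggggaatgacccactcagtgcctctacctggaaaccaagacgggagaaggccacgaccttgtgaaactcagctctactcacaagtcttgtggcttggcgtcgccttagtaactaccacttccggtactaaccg
Pex3: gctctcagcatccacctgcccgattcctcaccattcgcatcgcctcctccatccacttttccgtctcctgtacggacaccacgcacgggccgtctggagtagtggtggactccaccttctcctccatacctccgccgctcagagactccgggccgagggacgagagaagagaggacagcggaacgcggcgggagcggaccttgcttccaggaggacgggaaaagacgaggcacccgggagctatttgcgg
Pex16: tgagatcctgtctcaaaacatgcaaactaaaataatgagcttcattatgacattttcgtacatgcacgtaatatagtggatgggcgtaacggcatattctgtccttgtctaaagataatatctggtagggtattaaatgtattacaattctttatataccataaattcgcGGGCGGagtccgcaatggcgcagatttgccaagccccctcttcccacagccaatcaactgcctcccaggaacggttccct
Pex11g: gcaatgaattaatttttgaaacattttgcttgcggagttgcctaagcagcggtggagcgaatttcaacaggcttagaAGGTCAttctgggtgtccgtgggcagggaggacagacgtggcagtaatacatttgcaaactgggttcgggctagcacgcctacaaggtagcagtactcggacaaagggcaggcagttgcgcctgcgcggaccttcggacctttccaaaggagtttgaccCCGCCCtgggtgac

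Motifs were counted on both strands of the whole windows of 300 bases, 250 before and 50 after a start. RefSeq gave 11 windows for 8 of the 9 genes, and Pex19 was not matched. The direct repeat AGGTCANAGGTCA, the consensus for PPARA with its partner RXR, was in 0 of the 11 windows and in 0.0396% of all 32851 windows. The single site AGGTCA, which the repeat contains, was in 1 of the 11, that of Pex11g, and in 16.3% of all windows. The GC box GGGCGG, which overlaps neither, was in 8 of the 11, from 7 genes, and in 35.7% of all windows, and the 3 windows of Pex5 lie close together. Pex3 was the gene without a GC box, and the 1 of Pex11a lies after its start. The gene that borders Pex11a on its downstream side is Plin1, the perilipin of fat cells, and in mice a PPAR element between the genes is known to serve both. Plin1 averaged a signal of 4.50 in H-PFOS and 4.64 in HFD (difference −0.14, SE 0.16, adjusted p = 0.770 with limma), near the median of all probes.

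The largest peroxin differences were those of PFOS on the high-fat diet, in Pex11a and the membrane insertion factors. In H-PFOS minus HFD, on the log2 scale, Pex11a differed by 0.91 (1.88-fold), Pex3 by 0.57 (1.49-fold), Pex16 by 0.55 (1.46-fold) and Pex19 by 0.43 (1.34-fold). The matrix import factors differed by 0.12 to 0.31, and Pex11g by −0.03. Only Pex3 passed the test, a linear model of limma over all 34472 probes with 18 arrays, called at a Benjamini-Hochberg adjusted p under 0.05. Thus 1 of 9 peroxins rose and 0 fell, where 0.632% of all probes were called higher and 0.389% lower.

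Pex11a, which drives elongation and division of peroxisomes, read 10.61, 10.82 and 10.93 in H-PFOS, against 9.98, 9.77 and 9.88 in HFD. Every H-PFOS array was above every HFD array. The difference of 0.91 (SE 0.25, 95% confidence interval 0.38 to 1.44) had an adjusted p of 0.0874 in limma. That p was 0.0286 in a fit to the H-PFOS and HFD arrays alone and 0.00173 without the divergent arrays. Those 2 arrays belong to other groups and enter this test through the shared variance. They were the highest of L-PFOS (10.72) and H-PFNA (10.79) for Pex11a, so the lower p without them is no independent support. Without H-PFOS replicate 3 the adjusted p was 0.238, the highest value when any 1 of the 6 arrays was left out.

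Pex3, the membrane receptor for PEX19 and its cargo, read 9.73, 9.53 and 9.65 in H-PFOS, against 8.95, 9.23 and 9.01 in HFD. The groups did not overlap, and the lowest H-PFOS array was above every other array of the study. Pex3 rose by 0.57 (SE 0.13, 95% confidence interval 0.30 to 0.85, limma adjusted p = 0.0453). The call ended without any 1 of the 6 arrays, with adjusted p between 0.0736 (without HFD replicate 2) and 0.137 (without HFD replicate 3). It also ended in the fit to these 2 groups alone (0.116).

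Pex16, which helps PEX3 reach the membrane, read 8.97, 8.71 and 9.09 in H-PFOS, against 8.18, 8.45 and 8.49 in HFD. The groups did not overlap, and HFD replicate 1 was the lowest of all 18 arrays. The difference was 0.55 (SE 0.13, 95% confidence interval 0.27 to 0.83, limma adjusted p = 0.0560). Leaving out HFD replicate 1 gave 0.45 and leaving out H-PFOS replicate 2 gave 0.66. Without the divergent arrays the adjusted p was 0.0279, but these were the highest of their own groups for Pex16 too, so this is no independent support.

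Pex19, the soluble carrier of new membrane proteins, read 9.59, 9.57 and 9.84 in H-PFOS, against 9.24, 9.18 and 9.30 in HFD. Again the groups did not overlap. The difference was 0.43 (SE 0.13, 95% confidence interval 0.16 to 0.69), with a limma adjusted p of 0.115, or 0.0421 without the divergent arrays. For Pex19 also, the divergent arrays were the highest of their own groups, and the lower p is no independent support.

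**Figure D1:**
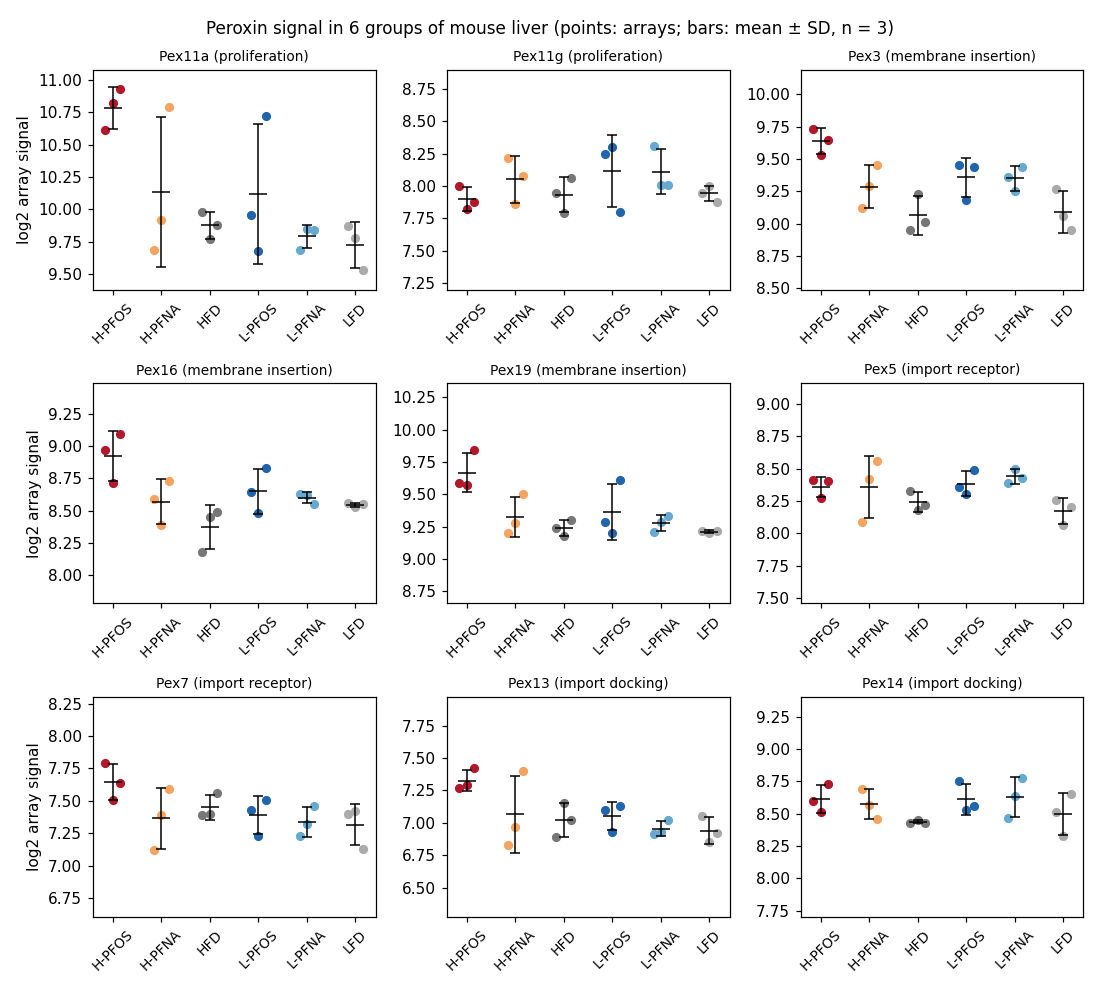
Log2 array signal of the 9 peroxins (vertical axis, each panel spanning the same range of log2 units) in the 6 groups (horizontal axis); points are arrays and bars the mean ± SD of 3. Pex11a lay between 10.61 and 10.93 in all H-PFOS arrays, and 1 array each of H-PFNA (10.79) and L-PFOS (10.72) lay beside them, while Pex11g stayed between 7.79 and 8.31.

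None of the 4 import factors was called. Pex13, a docking protein of the peroxisomal membrane, read 7.27, 7.29 and 7.42 in H-PFOS, against 6.89, 7.15 and 7.02 in HFD, without overlap (difference 0.31, SE 0.14, limma adjusted p = 0.335). Pex14, its docking partner, read 8.60, 8.51 and 8.73 in H-PFOS, against 8.43, 8.45 and 8.43 in HFD, also without overlap (0.18, SE 0.12, adjusted p = 0.591). Both point estimates were below those of the membrane insertion factors, and the difference was not tested. The receptor Pex5, for cargo with a signal at its C terminus, had 8.41, 8.27 and 8.40 in H-PFOS, against 8.33, 8.18 and 8.22 in HFD (0.12, SE 0.12, adjusted p = 0.758). The receptor Pex7, for cargo with a signal near its N terminus, had 7.79, 7.51 and 7.64 in H-PFOS, against 7.39, 7.40 and 7.56 in HFD (0.20, SE 0.14, adjusted p = 0.597). The groups overlapped for both receptors.

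Pex11g, the other PEX11 protein measured here, read 8.0, 7.82 and 7.88 in H-PFOS, against 7.95, 7.79 and 8.06 in HFD. The groups overlapped, with a difference of −0.03 (SE 0.15, 95% confidence interval −0.34 to 0.27, limma adjusted p = 0.950). The interval of Pex11a begins above the end of this one, although the difference between the genes was not tested. The proliferation factors thus stood at 0.91 and −0.03, on either side of the 4 import factors with their median of 0.19, and the 3 membrane insertion factors had a median of 0.55. Over all probes the median difference was −0.01. In all, 6 of the 9 peroxins had every H-PFOS array above every HFD array, which held for 9.71% of all probes. At an unadjusted p under 0.05, 5 of 9 were higher (Pex3, Pex11a, Pex13, Pex16 and Pex19), against 7.12% of all probes.

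Markers of other cells were compared between the same groups. Of 36 markers in 8 lists, for Kupffer, endothelial, stellate, lymphoid, neutrophil, bile duct, fat and exocrine pancreatic cells, 0 were called by limma in either direction and 3 had an unadjusted p under 0.05. Among all probes 0.632% were called higher and 0.389% lower, and 7.12% were higher at such an unadjusted p. The share that was lower at such a p is not given here. The mean of the 6 stellate and fibroblast markers was 7.28 to 7.54 in H-PFOS and 7.38 to 8.34 in HFD. The 6 Kupffer cell markers averaged 7.07 to 7.43 in H-PFOS and 6.56 to 7.70 in HFD, and the 6 endothelial markers 8.09 to 8.45 in H-PFOS and 7.93 to 8.36 in HFD. All 4 neutrophil markers were below the median of all probes. None of these ranges parted the groups. The 6 hepatocyte markers did, with means of 11.89 to 12.00 in H-PFOS and 12.07 to 12.21 in HFD. The part of other cells, or of fewer hepatocytes, in the peroxin differences was not tested.

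PFNA on the high-fat diet shares its HFD control arrays with PFOS, and its differences were smaller and uncalled. In H-PFNA, Pex11a read 9.69, 9.92 and 10.79, against 9.98, 9.77 and 9.88 in HFD. Replicate 3 stood well above the HFD arrays, and replicates 1 and 2 lay below or within their range. The difference was 0.26 (SE 0.25, 95% confidence interval −0.27 to 0.78, limma adjusted p = 0.804), and −0.07 without replicate 3. Pex3 read 9.12, 9.29 and 9.45 in H-PFNA, against 8.95, 9.23 and 9.01 in HFD (0.22, SE 0.13, adjusted p = 0.632, and 0.14 without replicate 3). Pex16 had 8.59, 8.39 and 8.73 in H-PFNA (difference from HFD 0.20, SE 0.13, and 0.12 without replicate 3). Pex19 had 9.20, 9.28 and 9.50 in H-PFNA (0.09, SE 0.13, and 0 without replicate 3). For each of these genes replicate 3 was the highest of the H-PFNA arrays. Pex13 read 6.83, 6.97 and 7.40 in H-PFNA and differed from HFD by 0.05 (SE 0.14), or by −0.12 without replicate 3. The other 4 peroxins differed by −0.08 to 0.14. Of these, Pex14 read 8.69, 8.57 and 8.46 in H-PFNA, each above its HFD arrays (0.14, SE 0.12, adjusted p = 0.780, and 0.19 without replicate 3), a pattern that 6.83% of all probes had. Of the 9, 0 were called in limma and 0 had an unadjusted p under 0.05, where 0.113% of all probes were called and 9.77% had such a p.

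On the low-fat diet, too, 1 PFOS array stood apart for Pex11a. In L-PFOS, Pex11a read 9.96, 9.68 and 10.72, against 9.87, 9.78 and 9.53 in LFD. Replicate 3 was again the high array, and replicates 1 and 2 lay near the controls. The difference was 0.39 (SE 0.25, 95% confidence interval −0.13 to 0.92, limma adjusted p = 0.562), and 0.09 without replicate 3. Pex19 read 9.29, 9.20 and 9.61 in L-PFOS, against 9.22, 9.20 and 9.22 in LFD (0.15, SE 0.13, and 0.03 without replicate 3). Pex16 read 8.64, 8.48 and 8.83 in L-PFOS, against 8.56, 8.53 and 8.55 in LFD (0.10, SE 0.13, and 0.01 without replicate 3). Again replicate 3 was the highest L-PFOS array for both genes. Pex3 read 9.45, 9.18 and 9.44 in L-PFOS, against 9.27, 9.06 and 8.95 in LFD (0.26, SE 0.13, adjusted p = 0.446, and 0.22 without replicate 3). Pex11g ran the other way by array: replicate 3 had 7.80 and replicates 1 and 2 had 8.25 and 8.30, against 7.95, 8.0 and 7.88 in LFD. Its difference was 0.17 (SE 0.15), or 0.33 without replicate 3. In Pex5 every L-PFOS array (8.36, 8.30 and 8.49) was above every LFD array (8.26, 8.06 and 8.20), with a difference of 0.21 (SE 0.12, adjusted p = 0.529), or 0.16 without replicate 3, and 7.58% of all probes had this pattern. Of the 9 peroxins, 0 were called and 0 had an unadjusted p under 0.05, where 0.389% of all probes were called and 11.9% had such a p. Of 36 markers of other cells 0 were called and 9 had an unadjusted p under 0.05. The 6 endothelial markers averaged 8.32 to 8.66 in L-PFOS and 7.74 to 8.27 in LFD. Kupffer cell markers averaged 7.30 to 8.03 in L-PFOS and 6.735 to 7.50 in LFD. Hepatocyte markers averaged 11.925 to 12.19 in L-PFOS and 12.18 to 12.21 in LFD. The part of these markers in the peroxin values was not tested.

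PFNA on the low-fat diet, against the same LFD arrays, left Pex11a near its controls. Pex11a read 9.69, 9.85 and 9.84 in L-PFNA (0.07, SE 0.25, 95% confidence interval −0.46 to 0.59, limma adjusted p = 0.954). No L-PFNA array was high for Pex11a, Pex16 or Pex19, whose highest readings were 9.85, 8.63 and 9.33. Pex5 read 8.39, 8.50 and 8.43 in L-PFNA, all above the LFD arrays, and its difference of 0.27 (SE 0.12) had an adjusted p of 0.375. Pex3 differed by 0.26 (SE 0.13, adjusted p = 0.435), with 9.36, 9.25 and 9.44 in L-PFNA. The other 6 peroxins differed by 0.01 to 0.17, and of these Pex11g had every L-PFNA array (8.31, 8.01 and 8.01) above every LFD array. Pex5 and Pex11g were the 2 of 9 with that pattern, which 10.1% of all probes had. Of the 9, 0 were called in limma and 1, Pex5, had an unadjusted p under 0.05, where 0.566% of all probes were called and 12.9% had such a p. Markers of other cells were also higher in L-PFNA, although 0 of 36 were called and 13 had an unadjusted p under 0.05. All 6 endothelial markers had every L-PFNA array above every LFD array, with list means of 8.57 to 8.63 in L-PFNA and 7.74 to 8.27 in LFD. The 6 Kupffer cell markers averaged 7.61 to 8.02 in L-PFNA and 6.74 to 7.50 in LFD. Their part in the Pex5 and Pex3 values was not tested.

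**Figure D2:**
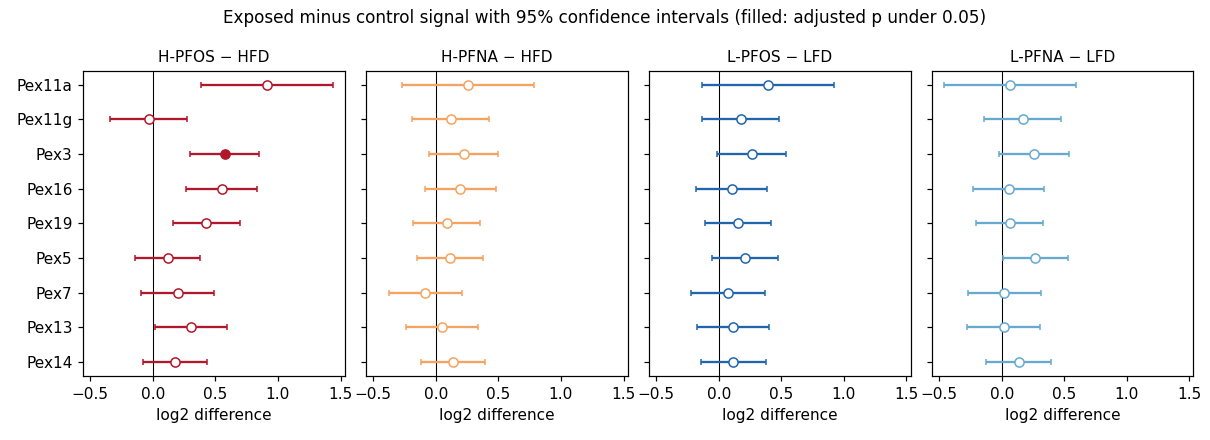
Log2 difference of each peroxin (rows) between exposed and control livers (horizontal axis, log2 units) for the 4 exposures, with 95% confidence intervals from limma and 3 arrays per group. The filled point, Pex3 in H-PFOS at 0.57, is the only call, and the intervals of Pex11a, Pex3, Pex16, Pex19 and Pex13 lie above 0 in H-PFOS alone.

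Between the diets without a compound, the 9 genes differed by −0.17 to 0.15 in HFD minus LFD. Pex16 was lower in every HFD array (8.18, 8.45 and 8.49) than in any LFD array (8.56, 8.53 and 8.55), at −0.17 (SE 0.13, limma adjusted p = 0.887), a pattern of 5.54% of all probes. The other 8 differed by −0.06 to 0.15 with overlapping groups. Of the 9, 0 were called and 0 had an unadjusted p under 0.05, where 0.0029% of all probes were called and 6.45% had such a p.

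Setting the compounds against each other on the high-fat diet, PFNA minus PFOS was −0.65 for Pex11a (SE 0.25, 95% confidence interval −1.18 to −0.13, limma adjusted p = 0.654). It was −0.35 for Pex3 (95% confidence interval −0.63 to −0.07), −0.35 for Pex16 (−0.64 to −0.07) and −0.34 for Pex19 (−0.61 to −0.07), each with an adjusted p of 0.654. Pex3 and Pex19 were lower in every H-PFNA array than in any H-PFOS array, as were 5.14% of all probes. For Pex11a and Pex16, H-PFNA replicate 3 lay within the range of H-PFOS. With the divergent arrays left out, Pex11a differed by −0.98 and was called (limma adjusted p = 0.00432), the 1 peroxin that was. Pex3, Pex16 and Pex19 each differed by −0.43. In that fit 259 of all 34472 probes were called higher and 251 lower. The array it leaves out of H-PFNA was the highest of that group for Pex11a (10.79), so this call is no independent support. In the full fit 0 of 9 were called, where 0.0029% of all probes were. There, 4 of 9 had an unadjusted p under 0.05, where 7.26% of all probes did. On the low-fat diet the same difference was −0.33 for Pex11a (SE 0.25, 95% confidence interval −0.85 to 0.20), or −0.03 without L-PFOS replicate 3, and −0.10 to 0.06 for the other 8. There, 0 of 9 were called and 0 had an unadjusted p under 0.05, against 0% and 3.92% of all probes. The low-fat intervals leave room for differences of either sign, so they do not show that the compounds acted alike.

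Whether diet altered the response was tested as an interaction, the high-fat minus the low-fat response. For PFOS it was 0.52 for Pex11a (SE 0.35), 0.45 for Pex16 (SE 0.19), 0.31 for Pex3 (SE 0.19) and 0.27 for Pex19 (SE 0.18), with limma adjusted p of 0.842, 0.759, 0.815 and 0.830. Without L-PFOS replicate 3 these were 0.82, 0.54, 0.35 and 0.40, with adjusted p of 0.419, 0.394, 0.595 and 0.472. Over the other peroxins the PFOS interaction ran from −0.21 to 0.19 in the full fit, with Pex11g the lowest and Pex13 the highest. Pex16 alone of the 9 had an unadjusted p under 0.05 in that fit. For PFNA the interaction lay between −0.15 and 0.19 over the 9 genes. Of the 9, 0 were called for either compound, as were 0% of all probes. An unadjusted p under 0.05 was found for 6.36% of all probes with PFOS and for 5.18% with PFNA, where 0 of 9 peroxins had one. With both divergent arrays left out, 45 of all probes were called higher for the PFOS interaction and 38 lower, while 0 of 9 peroxins were called. The larger PFOS values of the peroxins on the high-fat diet are thus not shown to differ from those on the low-fat diet.

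Over both diets and compounds together, the 12 exposed arrays were compared with the 6 controls. Pex3 rose by 0.33 (SE 0.08, 95% confidence interval 0.16 to 0.50, limma adjusted p = 0.0244), the 1 call among the 9 peroxins, where 2.99% of all probes were called higher. Its group means were 9.64 in H-PFOS, 9.36 in L-PFOS, 9.35 in L-PFNA and 9.29 in H-PFNA, against 9.09 in LFD and 9.06 in HFD. All 4 exposed means were above both control means, as they also were for Pex5, Pex14, Pex16 and Pex19, which were not called. The share of all probes with this order of means was not counted, so it is not shown to be particular to the peroxins. For Pex3 the ranges of single arrays overlapped, as the highest control read 9.27 and the lowest exposed array 9.12. The call ended without LFD replicate 2 (adjusted p = 0.0600), LFD replicate 3 (0.0697), HFD replicate 1 (0.0700) or HFD replicate 3 (0.0657), and held without any 1 of the other 14 arrays. The remaining 8 peroxins differed by 0.05 (Pex7) to 0.41 (Pex11a, adjusted p = 0.146). Without the divergent arrays Pex3 was at 0.30 and still called (adjusted p = 0.0419), Pex11a was at 0.25 and Pex7 at 0.01. Of the 6 hepatocyte markers 2 fell by limma, Apoa1 (−0.28, adjusted p = 0.0241) and Serpina1a (−0.30, adjusted p = 0.0299), and 0 rose. Their list was mixed, since 2 of the 6 had differences above 0, up to 0.32. Of 36 markers of other cells 1 was called, the endothelial gene Oit3, which rose (0.56, adjusted p = 0.0190). Among all 34472 probes 1029 were called higher and 697 lower. The part of these markers in the Pex3 call was not tested.

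Ordered by group mean, Pex11a ran H-PFOS (10.79 ± 0.16), H-PFNA (10.13 ± 0.58), L-PFOS (10.12 ± 0.54), HFD (9.88 ± 0.11), L-PFNA (9.79 ± 0.09) and LFD (9.73 ± 0.18), as mean ± SD with n = 3. Every pair of neighbours in that order overlapped in range. For Pex3, H-PFOS (9.64 ± 0.10) was separate from the next group, L-PFOS (9.36 ± 0.15), and the rest overlapped. For Pex16, H-PFOS (8.92 ± 0.19) led and HFD (8.37 ± 0.17) was last, below LFD (8.55 ± 0.02) without overlap. H-PFOS also led for Pex19 (9.67 ± 0.15), Pex13 (7.33 ± 0.08) and Pex7 (7.65 ± 0.14), and all neighbours in those orders overlapped. Pex11g had H-PFOS last (7.90 ± 0.09). L-PFNA led for Pex5 (8.44 ± 0.06) and Pex14 (8.63 ± 0.16), with every neighbour overlapping.

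The wide spread of Pex11a within L-PFOS and H-PFNA came from the 2 divergent arrays. The 5 arrays apart on the first component were the 5 highest of the 18 for Pex11a (10.61 to 10.93, with the other 13 at 9.53 to 9.98). They were also the 5 highest for Pex16 (8.71 to 9.09, others 8.18 to 8.64) and for Pex19 (9.50 to 9.84, others 9.18 to 9.33). For Pex3, Pex7 and Pex13, 4 of the 5 were among the 5 highest, for Pex5 it was 2, and for Pex14 and Pex11g it was 1. The component was computed from all probes, the peroxins included, so this describes the arrays and is no test. How many of all probes had the same 5 arrays highest was not counted, so the peroxins are not shown to stand out.

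**Figure D3:**
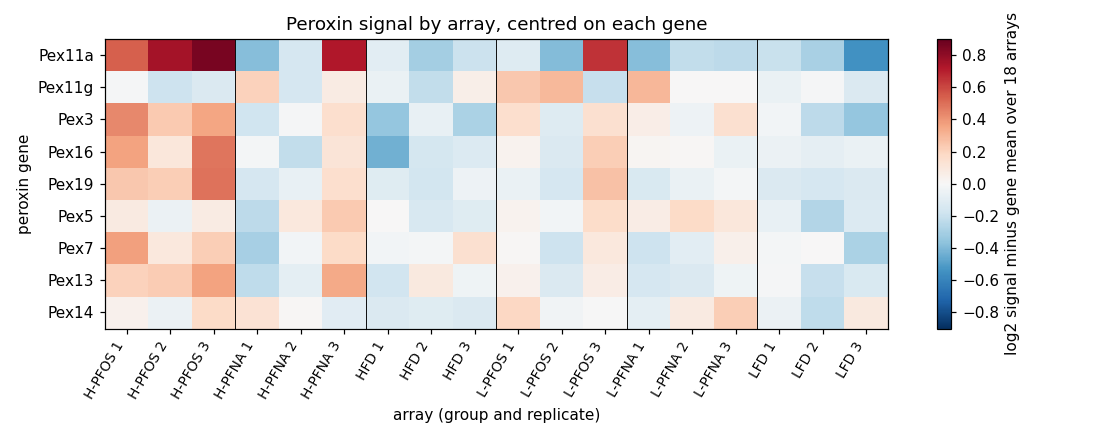
Log2 signal of each peroxin (rows) in each of the 18 arrays (columns, by group and replicate) minus the mean of that gene over all arrays; red is above and blue below the mean. The row of Pex11a is red in the 3 H-PFOS arrays, in H-PFNA replicate 3 and in L-PFOS replicate 3, and the rows of Pex19 and Pex16 are red in the same arrays.

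Among the other 13 arrays alone, Pearson's r with Pex11a was 0.77 for Pex7, 0.57 for Pex19, 0.41 for Pex5, 0.36 for Pex13, 0.27 for Pex3, −0.05 for Pex14, −0.15 for Pex11g and −0.37 for Pex16. Those arrays share a platform and, within a group, a treatment. Pex16, high with Pex11a in the 5 arrays, thus did not run with it among the rest. The genes most like Pex11a over the 18 arrays, among 12706 probes with 1 named gene and a mean above the median, were Atp5pb, a subunit of ATP synthase (r = 0.97), Kdsr, an enzyme of sphingolipid synthesis (0.97), and Swi5, a recombination protein (0.97). Next came Pdk4, a kinase that restrains pyruvate oxidation (0.96), and Hsd17b4, a peroxisomal enzyme of fatty acid oxidation (0.96). Within the 13 arrays these 5 had r of 0.77, 0.69, 0.68, 0.31 and 0.51, so much of the likeness lay in the 5 arrays apart. Pex11g was most like Kdm5b, a histone demethylase (0.82), Hdac10, a deacetylase (0.80), Dnph1 (0.80), Tmem28 (0.80) and Lmln (0.79), and within the 13 arrays these had 0.79 to 0.88. The genes of both lists were picked for their r, and the 13 arrays are part of the 18, so these values are no test.

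The rest of the peroxisomal programme was read from lists for each role, here for PFOS on the high-fat diet. Of 5 other peroxins, 0 were called and the median difference was −0.07. Their largest difference was in Pex2, of the ubiquitin ligase that recycles PEX5, with 5.84, 6.25 and 6.00 in H-PFOS, against 6.28, 6.37 and 6.42 in HFD (−0.33, SE 0.14, limma adjusted p = 0.290). Of 6 genes of the division machinery 0 were called (median 0.13), the largest being the fission GTPase Dnm1l (0.28, SE 0.14, adjusted p = 0.406). Of 8 membrane transporters and tethers 0 were called (median 0.23), and the largest was Abcd3, a fatty acid transporter of the peroxisomal membrane (0.76, SE 0.20, adjusted p = 0.0739). Abcd3 read 12.50, 12.37 and 12.29 in H-PFOS, against 11.61, 11.49 and 11.79 in HFD. Of 7 quality control genes 0 were called (median 0.10), the largest being the matrix protease Lonp2 (0.23, SE 0.13, adjusted p = 0.452).

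Cargo of the import receptors was listed by receptor. Of 19 enzymes carried by PEX5, 2 rose and 0 fell (median 0.28). Ehhadh, the bifunctional enzyme of peroxisomal beta-oxidation, read 12.91, 13.26 and 13.12 in H-PFOS, against 11.17, 11.05 and 11.13 in HFD, and rose by 1.98 (SE 0.40, limma adjusted p = 0.0259). Acot4, a thioesterase, rose by 1.21 (SE 0.27, adjusted p = 0.0375). Of 4 enzymes carried by PEX7, 1 rose: Acaa1b, a thiolase, by 0.96 (SE 0.13, adjusted p = 0.00178), with 12.35, 12.43 and 12.45 in H-PFOS, against 11.49, 11.40 and 11.45 in HFD. The median of the 4 was 0.22. Of 14 PPARA targets outside the peroxisome, 5 rose and 0 fell (median 0.59), among them the thioesterase Acot1 (2.71, SE 0.37, adjusted p = 0.00218) and the fatty acid hydroxylase Cyp4a14 (0.79, SE 0.13, adjusted p = 0.00935). Also called were Acot2 (2.61), Cyp4a31 (2.47) and the carnitine carrier Slc25a20 (0.63). The 0.632% of all probes called higher is the background of each of these counts. Without any 1 of the 6 arrays the calls of Acaa1b, Acot1 and Acot2 held, while those of Ehhadh, Acot4 and Cyp4a31 ended without each in turn, with adjusted p up to 0.0903, 0.153 and 0.0989. The call of Cyp4a14 ended without H-PFOS replicate 2 (adjusted p = 0.0503), and that of Slc25a20 without any but H-PFOS replicate 1 (up to 0.111). Slc25a20 also lost its call in the fit to these 2 groups alone (adjusted p = 0.0876).

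**Figure D4:**
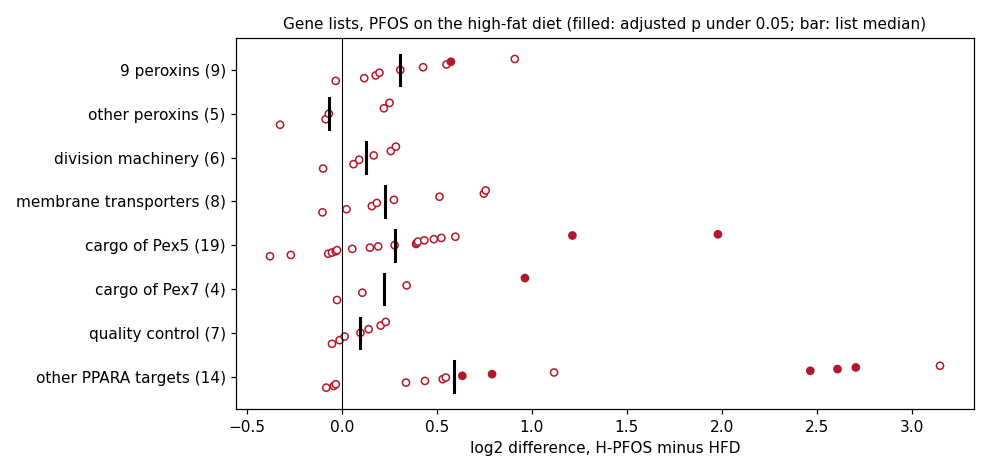
Log2 difference between H-PFOS and HFD (horizontal axis) for the genes of 8 lists (rows, with the number measured); each point is a gene, filled where called by limma, and the black bar is the list median. The 9 peroxins have a median of 0.31, against 0.59 for PPARA targets outside the peroxisome and −0.07 for the other peroxins.

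In the other exposures the 7 lists, with 63 genes measured, held few calls. Cd36, a fatty acid importer, rose in L-PFOS by 1.47 (SE 0.31, limma adjusted p = 0.0460), the 1 call of 63, where 0.389% of all probes were called. Gnpat, the first enzyme of ether lipid synthesis, rose in L-PFNA by 0.61 (SE 0.11, adjusted p = 0.0204), again the 1 call of 63, where 0.566% of all probes were called. Both calls ended without any 1 of their 6 arrays, with adjusted p up to 0.161 (without LFD replicate 1) for Cd36 and 0.118 (without L-PFNA replicate 3) for Gnpat. In H-PFNA 0 of 63 were called by limma, where 0.113% of all probes were, and 17 had an unadjusted p under 0.05, where 9.77% of all probes did. Over both diets and compounds, 14 of 63 rose and 0 fell, where 2.99% of all probes were called higher. Pex26, which anchors the export ATPases to the membrane, rose by 0.36 (SE 0.10, adjusted p = 0.0424). Mief2, an adaptor of the fission GTPase, rose by 0.45 (SE 0.09, adjusted p = 0.00988), Gnpat by 0.48 (SE 0.07, adjusted p = 6.88e-04) and Acaa1b by 0.56 (SE 0.08, adjusted p = 5.69e-04). The membrane protein Mpv17l rose by 0.55 (adjusted p = 0.0404), Ehhadh by 0.90 (0.0421), Ech1 by 0.31 (0.0493) and the protease Tysnd1 by 0.31 (0.0222). Of the PPARA targets, Acot1 (1.48), Acot2 (1.41), Cyp4a31 (1.23), Cd36 (1.04), Slc25a20 (0.52) and Cyp4a14 (0.46) rose. The calls of Mief2, Gnpat, Acaa1b, Acot1, Acot2, Cd36, Slc25a20 and Cyp4a14 held without any 1 of the 18 arrays. Those of Pex26, Mpv17l, Ehhadh, Ech1, Cyp4a31 and Tysnd1 ended without some, with adjusted p up to 0.0976, 0.102, 0.0969, 0.106, 0.0697 and 0.0623.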

How the data were processed

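Liver RNA, extracted with Trizol and labelled with biotin per the labels' protocols, was hybridised to 18 expression arrays. The submitters' processing notes name Transcriptome Analysis Console, and the authors deposited 1 log2 signal per probe and array, the base being read from the range. Background correction, normalization and genome build were not given in the sources used here. Of 34472 probes, 23521 had 1 gene symbol, 1814 several and 9137 none.

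Group means were fitted together over all probes and 18 arrays with limma 3.58.1 in R 4.3.3 (12 residual and 5.21 prior degrees of freedom), without a signal filter, and tested on simulated data. P-values were adjusted by Benjamini and Hochberg within each of 10 contrasts. Unless given as SD, errors are the model's standard errors (n = 3 arrays per group), and the number of arrays limits the precision. The rule for named genes took the 9 peroxins, the called or largest member of each list, and the 5 genes most correlated with Pex11a and with Pex11g. The members, lists and alternatives were chosen with earlier results of these data known. Some genes of the lists are not reported here, and each count gives the number of genes measured. Sequences are RefSeq's (GRCm38.p6). Alternatives were quantile normalization, a filter on dim probes, a fit to the compared groups, trended robust variances, a replicate block and leaving out arrays.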

Additional observations from a re-analysis of the deposited data

How the results depend on the processing

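Of the 9 peroxins, the number called in H-PFOS against HFD was 4 on probes above the median of all probes (Pex3 with Pex11a, Pex16 and Pex19), 2 with trended robust variances (Pex3 with Pex16) and 4 without the divergent arrays, against 1 in the full fit. Calls among all probes rose as well, from 218 higher and 134 lower in the full fit. They were 493 and 301 on brighter probes, 356 and 194 with trended robust variances and 621 and 390 without the divergent arrays. The divergent arrays were the highest of their own groups for Pex11a, Pex16 and Pex19, so the 4 calls without them are no independent support. The number of peroxins called was 0 without any 1 of the 6 arrays of these groups. The cause was not tested, beyond fewer probes, arrays or groups entering the fit. In the pooled comparison the number was 0 to 1 with single arrays left out, with Pex3 at 0.29 to 0.37. Single arrays left out put Pex3 in H-PFOS against HFD at 0.52 to 0.66, Pex11g there at −0.10 to 0.03, Pex11a in L-PFNA against LFD at −0.032 to 0.14, and Pex11a and Pex13 in H-PFNA against HFD at −0.072 to 0.48 and −0.12 to 0.17. Without both divergent arrays, Pex11a (−0.072) and Pex13 (−0.12) turned negative in H-PFNA against HFD. In H-PFNA against H-PFOS 1 peroxin was then called, where 259 of all probes were called higher and 251 lower. Quantile normalization turned Pex7 in the pooled comparison to −5.09e-04. Another 53 peroxin differences are given above only within ranges or left out. Of their 786 values under the alternatives 65 were of opposite sign, the largest of these 0.14 in size, and 0 were past the threshold. For the called genes of the other lists, the same alternatives were chosen after seeing the data. Those calls held without the divergent arrays, on brighter probes and with the block. Quantile normalization ended 5 of 24, the compared groups alone 3 of 10 and trended robust variances 2 of 24.

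The numbers of all probes called moved more. For L-PFOS against LFD, 134 were called, against 85 with quantile normalization, 270 on brighter probes, 6 in the compared groups alone, 454 without the divergent arrays and 22 to 260 with single arrays left out. For L-PFNA against LFD, 195 were called, against 591 on brighter probes, 388 with trended robust variances, 593 without the divergent arrays and 26 to 127 with single arrays left out. For H-PFOS against HFD, 352 were called, against 794, 550, 1011 and 61 to 184 in the same order. For H-PFNA against HFD, 39 were called, against 115, 120, 148 and 9 to 34 in that order, and 6 in the compared groups alone. For HFD against LFD, 1 was called, against 2 with quantile normalization, on brighter probes and with trended robust variances, 8 in the compared groups alone, 3 with the block, 0 without the divergent arrays and 0 to 3 with single arrays left out. For H-PFNA against H-PFOS, 1 was called, against 0 with quantile normalization, in the compared groups alone and with the block, 510 without the divergent arrays and 0 to 1 with single arrays left out. The PFOS interaction had 83 calls without the divergent arrays and 0 otherwise in the full fit. The pooled comparison had 1073 to 1972 calls with single arrays left out.

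With the replicate number as a block, the Pex3 call in H-PFOS against HFD ended (adjusted p = 0.0555) and Pex16 was called (adjusted p = 0.0482). Deviations of same-numbered arrays from their group means had mean correlations of 0.0021, 0.0074 and 0.039 for replicates 1, 2 and 3. Between arrays of different number and group the mean was −0.0079. Among arrays of other groups, the closest had the same number for 8 of 18 arrays. These values do not show that the number pairs the samples, and they cannot exclude it. The mean over all probes of a gene could not differ from the value used, since each peroxin had 1 probe. Every peroxin probe was above the median signal of all probes. Values within L-PFOS and H-PFNA rest on 3 arrays of which 1 stood apart.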

Other observations

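Among the other peroxins, Pex26, which anchors the export ATPases of the peroxisomal membrane, was singled out after its values were seen. It read 8.54, 8.08 and 7.83 in L-PFOS and 8.32, 8.47 and 8.19 in L-PFNA, against 7.79, 7.63 and 7.66 in LFD. Every exposed array of this diet was above every control array. On the high-fat diet it read 7.44, 7.54 and 7.46 in H-PFOS and 8.0, 8.21 and 7.70 in H-PFNA, against 7.50, 7.59 and 7.56 in HFD. The H-PFNA arrays were all above the HFD arrays and the H-PFOS arrays were not. Of all probes, 7.58% had every array above the controls in L-PFOS, 10.1% in L-PFNA and 6.83% in H-PFNA. The differences from the control of the same diet were 0.46 in L-PFOS, 0.63 in L-PFNA, −0.07 in H-PFOS and 0.42 in H-PFNA (SE 0.16 each). By limma 0 of these 4 were called, while all but H-PFOS, 3 in number, had an unadjusted p under 0.05. Such a p was found for 11.9% of all probes in L-PFOS, 12.9% in L-PFNA and 9.77% in H-PFNA. Within L-PFOS and within H-PFNA, replicate 3, the array with the highest Pex11a signal, had the lowest Pex26 signal.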
